A study of Mus musculus with 6 samples.

Results

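The caspases and the inhibitors of apoptosis are described here by 8 genes of the count table, chosen by gene symbol: the initiator caspase genes Casp2, Casp8 and Casp9, the executioner caspase gene Casp6, the inhibitor of apoptosis (IAP) genes Xiap, Birc2 and Birc3, and Diablo, whose product (also called SMAC) antagonises the IAPs. They are 8 of the 32285 genes in the table, and all 8 were among the 14814 genes with enough counts to be tested. RNA came from GS (germline stem) cells, testis germ cells of young mice kept in culture with properties of spermatogonial stem cells. The 3 control libraries have the genotype p57 flox/flox, meaning loxP sites in both copies of Cdkn1c, which encodes p57, an inhibitor of the cell cycle. The 3 p57 KO libraries have the genotype p57 flox/flox-Cre, with Cre recombinase delivered by an adenovirus, and RNA was taken 2 days after infection. The growth protocol, which is worded alike for all 6 libraries, has mice of 3 days where the series design has 10 days, and the strain is BDF1 in one label and C57BL/6 and 129 in another. The sources used here do not give whether controls were infected with any virus, how many cell lines were used, or whether replicates were separate cultures, so the spread behind the p-values, that between these libraries, may be only technical.

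Caspases are proteases that are made as inactive precursors. Initiator caspases are activated on protein platforms: caspase-9 on the apoptosome that APAF1 and cytochrome c form when mitochondria are permeabilised, caspase-8 by the adaptor FADD at death receptors, and caspase-2 on the PIDDosome. They set off the executioner caspases, which cut many cell proteins. XIAP binds and inhibits caspase-9 and executioner caspases, the IAPs cIAP1 (Birc2) and cIAP2 (Birc3) are ubiquitin ligases of TNF receptor and NF-kB signalling, and DIABLO leaves the mitochondria and displaces caspases from the IAPs. In the testis, apoptosis removes a large share of germ cells, and the number of spermatogonia depends on it.

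Total counts lay between 15662833 and 17893671 per library, and depth did not separate the groups. The targeted gene Cdkn1c had 344, 364 and 311 counts in control and 138, 155 and 152 in p57 KO, a log2 fold change of -1.22 (SE 0.09, with adjusted p = 4.07e-09). The labels do not give the deleted part of the gene, so these counts may in part lie outside it. All 10 spermatogonial markers examined were detected. Their summed levels were 3763 to 3844 CPM (counts scaled to library size) in control and 3168 to 3351 CPM in p57 KO. Of the 10, 8 fell, where 11.6% of all tested genes fell and 11.6% rose. Of the Leydig cell markers Hsd3b1 was at 0 in every library, and Cyp17a1, Cyp11a1 and Insl3 had means under 1 CPM, as did the Sertoli cell markers Gata4 and Amh and the macrophage markers Adgre1, Csf1r, Ptprc and Cd14. Summed levels of the 5 Leydig markers were 2.94 to 3.88 CPM in control and 3.14 to 3.29 CPM in p57 KO. Those of the 5 Sertoli markers were 27.8 to 31.5 and 26.4 to 28.3 CPM, and no marker of either list passed the test. Star, with a control mean of 3.41 CPM, made up most of the Leydig sum. Sox9 and Wt1, with control means of 17.8 and 10.2 CPM, made up most of the Sertoli sum, so absence of these cells is not shown. The 5 macrophage markers summed to 12.3 to 13.9 and 17.1 to 19.9 CPM, and Cd68 and Cd14 rose. Of 3 markers of differentiating spermatogonia Kit and Sohlh1 rose (71.6 to 81 and 87.3 to 94.7 CPM summed), and of 4 endothelial markers Tek rose and Kdr and Cdh5 fell (82.2 to 86.1 and 74.5 to 77.9 CPM). The 14 fibroblast and feeder cell markers had a higher mean in p57 KO for all 14. Their summed levels were 872 to 1116 CPM in control and 1360 to 2659 CPM in p57 KO. Only 3 of them (Tagln, Thy1 and Col5a1) passed the test, all higher, where 11.6% of all tested genes rose. In bulk RNA, fewer cells of a type and less RNA per cell cannot be told apart.

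The upstream sequences of the members differ in base composition, and those of the 3 members that passed the test and of Birc3, which has a base composition like that of Casp8, are shown. Sequences are those of RefSeq on GRCm38.p6, 250 bases up to the base before the transcription start, 5′ to 3′ on the gene's strand. All 8 members matched by symbol, Xiap with 3 listed starts and Birc2 with 2, of which the first is used. Capitals mark matches, on either strand, to any of the motifs searched: the GC box GGGCGG, the CCAAT box, TATAAA, the interferon regulatory factor (IRF) core AANNGAAA, the E2F site TTTCCCGC, the cAMP response element TGACGTCA, the NF-kB site and the p53 half-site. The motifs were chosen after the sequences had been seen. The 4 regions are Casp2 at chr6:42264735-42264984 (plus strand), Xiap at chrX:42068148-42068397 (plus), Casp8 at chr1:58802252-58802501 (plus) and Birc3 at chr9:7873171-7873420 (minus). Those of Casp8 and Xiap lie inside the annotated gene spans (chr1:58795374-58847503 and chrX:42059679-42109656), so the listed start is not the outermost one. Base composition and matches therefore depend on which start was listed.
Casp2: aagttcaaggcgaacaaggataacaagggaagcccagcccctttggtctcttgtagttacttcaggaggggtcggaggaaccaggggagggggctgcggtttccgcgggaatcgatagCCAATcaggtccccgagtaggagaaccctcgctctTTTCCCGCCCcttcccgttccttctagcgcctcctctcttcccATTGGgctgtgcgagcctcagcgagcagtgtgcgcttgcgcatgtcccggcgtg
Xiap: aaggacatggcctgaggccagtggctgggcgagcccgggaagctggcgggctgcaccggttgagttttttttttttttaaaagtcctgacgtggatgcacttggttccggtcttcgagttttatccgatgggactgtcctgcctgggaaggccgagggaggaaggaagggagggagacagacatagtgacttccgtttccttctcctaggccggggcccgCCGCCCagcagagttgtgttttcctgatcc
Casp8: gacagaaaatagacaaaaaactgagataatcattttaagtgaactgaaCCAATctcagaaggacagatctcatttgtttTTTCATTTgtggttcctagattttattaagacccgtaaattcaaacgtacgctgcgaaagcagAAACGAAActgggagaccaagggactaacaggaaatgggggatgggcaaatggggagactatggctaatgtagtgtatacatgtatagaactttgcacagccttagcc
Birc3: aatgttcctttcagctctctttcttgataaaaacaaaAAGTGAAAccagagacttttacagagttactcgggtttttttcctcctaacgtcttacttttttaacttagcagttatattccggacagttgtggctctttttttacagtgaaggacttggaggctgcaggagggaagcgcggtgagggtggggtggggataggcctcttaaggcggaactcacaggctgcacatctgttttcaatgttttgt

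Among the regions of first listed starts, those of Casp8 and Birc3 were poorest in CpG, with 5 and 6 CpG dinucleotides and a GC content of 39.6% and 43.6%. The other listed starts of Xiap had 1 CpG each, with 46.4% and 39.2% GC. The other members had 11 (Casp6) to 31 (Birc2) CpG, with 17 for Casp2 and 13 for Xiap. Over the 32851 listed promoters the median was 6 CpG and 52.4% GC. Casp8 held 2 matches to the IRF core and Birc3 held 1, and no other member held one in the window of its first listed start. The second listed start of Birc2 held 3. Over all promoters 21.3% hold this motif. The Casp2 region held 2 CCAAT boxes (in 33.8% of all promoters) and an E2F site (in 0.895%), which overlaps its GC box (in 32.7%). A GC box was also present once in Xiap, Casp6 and Diablo and 4 times in Casp9, and a cAMP response element (in 1.55%) once in Birc2. The NF-kB site (in 7.25%), the p53 half-site (in 7.13%) and TATAAA (in 12.4%) matched none of the 8 windows. These are matches of letters in a short window and say nothing of binding.

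In control cells Casp2, Birc2, Casp9 and Xiap had the highest levels of the members and Casp8 the lowest. Levels of different genes are given per length, as reads per length of annotated exon and library size (RPKM, mean ± SD, n = 3). Casp2 had 12.8 ± 0.547, Birc2 11.7 ± 0.301, Casp9 11 ± 0.859, Xiap 9.7 ± 0.245, Casp6 2.94 ± 0.00191, Diablo 2.26 ± 0.196, Birc3 1.59 ± 0.0267 and Casp8 0.394 ± 0.0873 RPKM. Birc2 and Casp9 overlapped over the 3 control libraries and are not separated in this order; all other neighbours did not overlap. The order was the same when the longest annotated transcript gave the length. For Casp6 that transcript, of 3914 bases, retains an intron and makes up most of the 5584 bases of exon used. Its level per length is therefore uncertain. The exon length used was also far above that of the longest transcript for Casp2 (7057 against 3529 bases), Diablo (6166 against 3386) and Birc3 (5009 against 2909). Their levels per length are uncertain too. Casp8 made up 1.25%, 1.91% and 1.72% of the summed RPKM of the 3 initiator genes in control replicates 1, 2 and 3, and Casp2 51.8% to 54.9%.

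**Figure D1:**
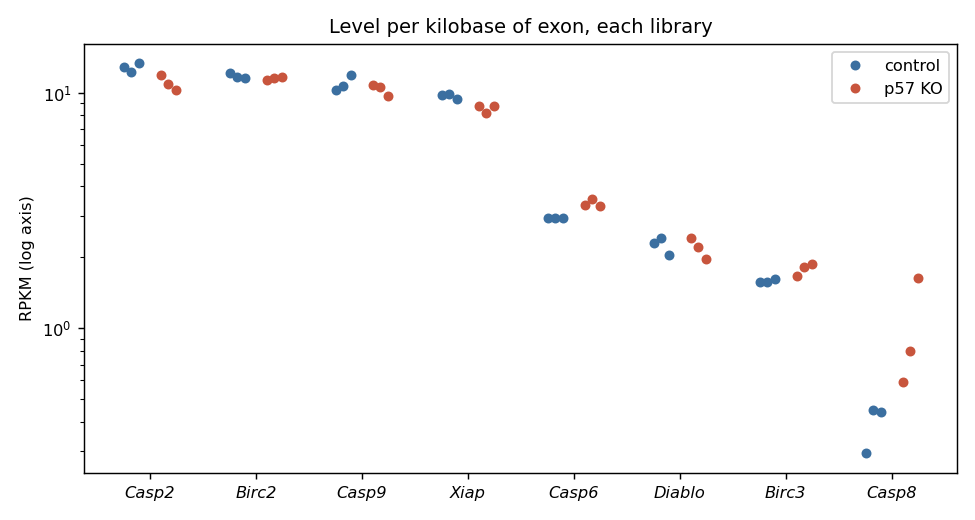
Level of each member per length (RPKM, log axis) in each of the 6 libraries, control in blue and p57 KO in red, with members ordered by their control mean. Casp2, Birc2, Casp9 and Xiap lie near 10 RPKM in both groups, and Casp8 lies lowest, at 0.294 to 0.448 RPKM in control and 0.589 to 1.63 RPKM in p57 KO.

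Between p57 KO and control most of these genes differed little. Of the 8 members 1 rose (Casp8) and 2 fell (Casp2 and Xiap), at an adjusted p under 0.05 in edgeR's quasi-likelihood test over all 14814 genes. That is 3 of 8, or 37.5%, where 23.3% of all tested genes passed, 11.6% in each direction. Their median log2 fold change was -0.037, and over all tested genes it was -0.0019. The CPM of the 3 libraries of each group did not overlap for 5 members (Casp2, Casp6, Casp8, Xiap and Birc3), against 39.2% of all genes. In 3 of them (Casp6, Casp8 and Birc3) p57 KO was higher, which holds for 19.5% of all genes, and in 2 lower (19.7%). For a single gene an exact two-sided permutation test of 3 against 3 libraries cannot give a p below 0.1, and these 5 members had p = 0.1.

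Casp2 (chr6:42264985-42282508), the initiator caspase of the PIDDosome, was lower in every p57 KO library. Its level was 90.7, 86.3 and 94 CPM in control replicates 1, 2 and 3 and 84, 77.1 and 72.6 CPM in p57 KO replicates 1, 2 and 3. The groups did not overlap, but control replicate 2 and p57 KO replicate 1 lay close together. The log2 fold change was -0.21 (SE 0.049, with adjusted p = 0.0043), from 90.3 ± 3.86 to 77.9 ± 5.74 CPM (SD, n = 3), or 86.3% of control.

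Casp9 (chr4:141793612-141815976), the initiator on the apoptosome, did not pass the test. It had 53.4, 55.7 and 62 CPM in control and 56.3, 55.3 and 50.1 CPM in p57 KO. The groups overlapped, with the highest value in control replicate 3 and the lowest in p57 KO replicate 3. The log2 fold change was -0.082 (SE 0.058, with adjusted p = 0.344). Its last part overlaps Cela2a and Ctrc on the other strand, with 62 to 78 and at most 1 counts per library.

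Casp8 (chr1:58795374-58847503), the initiator at death receptors, was higher in every p57 KO library, from few counts. It had 14, 22 and 20 counts in control and 27, 38 and 84 in p57 KO, or 0.849, 1.29 and 1.28 CPM against 1.7, 2.31 and 4.7 CPM. The groups did not overlap, and p57 KO replicate 3 stood far above the other libraries. The log2 fold change was 1.36 (SE 0.39, with adjusted p = 0.0272), from 1.14 ± 0.253 to 2.91 ± 1.59 CPM (SD, n = 3). Without p57 KO replicate 3 it was 0.82 (adjusted p = 0.0631), and without control replicate 1, 2 or 3 it was 1.18 (0.122), 1.46 (0.0843) and 1.44 (0.105), none of which passed. Over all alternatives its adjusted p ran from 2.25e-06 to 0.898. Its share of the summed RPKM of the 3 initiator genes was 2.53%, 3.57% and 7.55% in p57 KO replicates 1, 2 and 3.

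**Figure D2:**
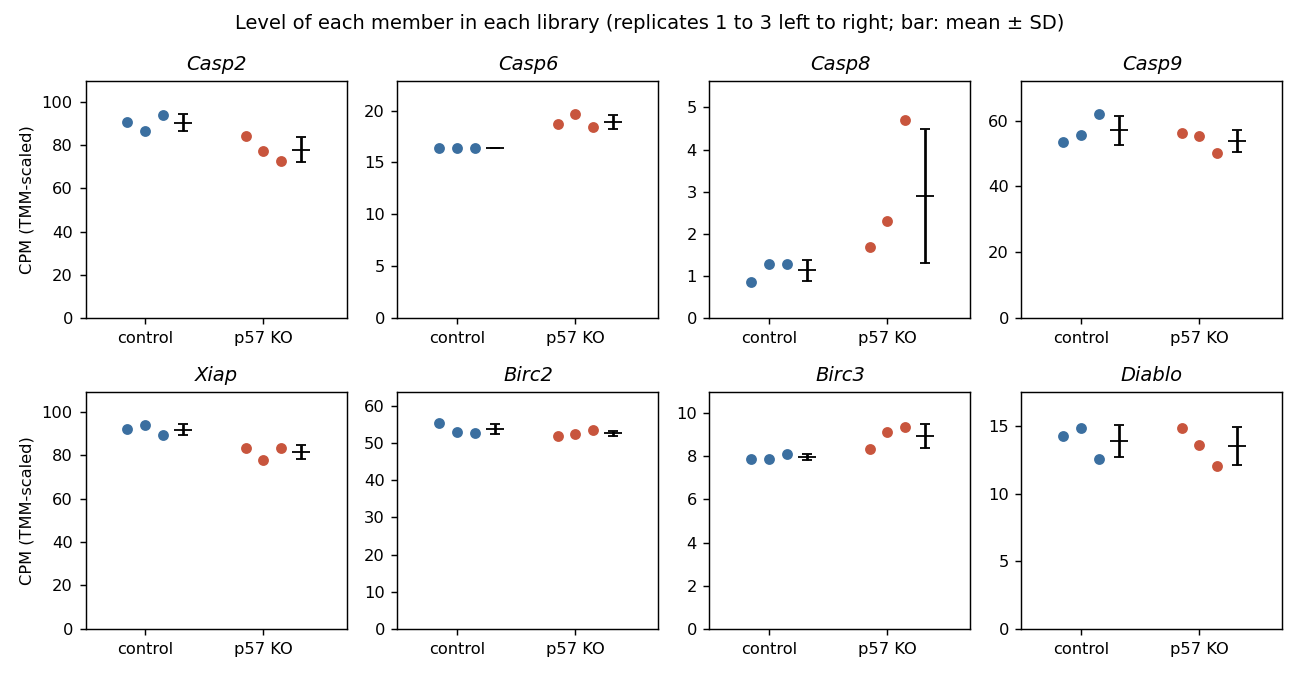
CPM of each of the 8 members in each library, with replicates 1 to 3 of a group from left to right and the mean ± SD beside them, on axes that start at 0. Casp2 and Xiap are lower and Casp8 is higher in all 3 p57 KO libraries, and the Casp8 mean is carried by replicate 3 at 4.7 CPM.

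The executioner gene Casp6 (chr3:129901425-129914103) had 16.4 CPM in each of the 3 control libraries and 18.7, 19.7 and 18.4 CPM in p57 KO. The groups did not overlap, and the control SD was 0.0107 CPM. At 257 to 328 counts per library the log2 fold change of 0.20 (SE 0.078) had an adjusted p of 0.0628 and did not pass. It stayed between 0.17 and 0.23 over all alternatives, and passed in none of them.

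Xiap (chrX:42059679-42109656), the IAP that inhibits caspase-9 and executioner caspases directly, was lower in every p57 KO library. It had 92.3, 93.9 and 89.3 CPM in control replicates 1, 2 and 3 and 83.1, 77.8 and 83.3 CPM in p57 KO. The 3 p57 KO values lay below all control values. The log2 fold change was -0.17 (SE 0.04, with adjusted p = 0.00287), from 91.8 ± 2.32 to 81.4 ± 3.12 CPM (SD, n = 3), or 88.7% of control. Leaving out any 1 library it passed each time.

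The cIAP genes did not pass. Birc2 and Birc3 are neighbours on chromosome 9, minus strand, at chr9:7818227-7837064 and chr9:7848699-7873186 (mm10), with 11635 bases between them. Birc2 had 55.3, 53 and 52.8 CPM in control and 51.8, 52.5 and 53.4 CPM in p57 KO, with overlapping groups and a log2 fold change of -0.03 (SE 0.046, with adjusted p = 0.695). Birc3 had 7.89, 7.89 and 8.12 CPM in control and 8.33, 9.13 and 9.35 CPM in p57 KO. Its groups did not overlap, and the log2 fold change of 0.17 (SE 0.11) had an adjusted p of 0.311. The ratio of Birc2 to Birc3 in RPKM was 7.66, 7.35 and 7.11 in control and 6.8, 6.29 and 6.24 in p57 KO. Read-length windows of 76 bases shared with Birc2 make up 39 of the 5079 of Birc3's annotated transcripts, so few reads can be of uncertain origin between this pair.

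Diablo (chr5:123509765-123524176) had 14.3, 14.9 and 12.6 CPM in control and 14.9, 13.6 and 12.1 CPM in p57 KO. The groups overlapped, and the log2 fold change was -0.045 (SE 0.10, with adjusted p = 0.796). Of the windows in its transcripts 35.3% also occur in another gene, mostly B3gnt4 on the other strand and Gm49027 on its own strand, so its counts are uncertain. Those genes had 17 to 25 and 1 to 5 counts per library. The summed RPKM of Xiap, Birc2 and Birc3 was 22.6 to 23.4 in control and 21.5 to 22.3 in p57 KO, and their ratio to Diablo was 9.51 to 11.1 and 9.01 to 11.4, so that the sums did not overlap and the ratios did. The other members shared at most 3.72% of their windows with another gene.

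The fibroblast markers moved with 2 of the 3 called members. Their mean log2 CPM, called the fibroblast score, was 3.90, 4.44 and 3.90 in control replicates 1, 2 and 3 and 4.71, 5.35 and 5.90 in p57 KO replicates 1, 2 and 3. Within p57 KO Casp8 was higher and Casp2 lower in libraries of higher score. Within control Casp2 was lowest in replicate 2, which had the highest score, while Casp8 was about the same in replicates 2 and 3 despite their different scores. Xiap did not follow it within p57 KO, where replicates 1 and 3 had about the same level. With the score as a covariate in edgeR the log2 fold change of Casp8 was -0.22 (SE 0.46, adjusted p = 0.898), that of Casp2 0.0055 (SE 0.073, adjusted p = 0.987) and that of Xiap -0.20 (SE 0.075, adjusted p = 0.156). None of the 8 members passed in that model, in which 2.84% of all genes did, 1.71% higher and 1.13% lower. When the test asked for a change beyond 1.2-fold, 0 members passed, with 3.17% of all genes (2.79% higher and 0.371% lower). The score does not overlap between the groups. A change in the germ cells and a change in the share of other cells therefore cannot be told apart for Casp8, Casp2 or Xiap. For Xiap the size of the difference was about the same in both models, with a wider error, and it did not pass with the score.

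**Figure D3:**
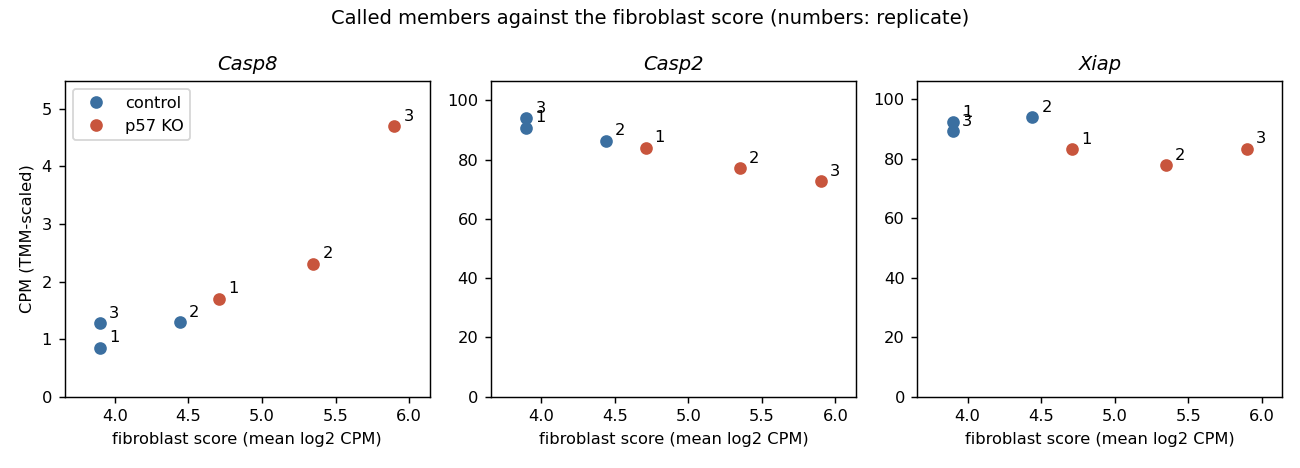
CPM of Casp8, Casp2 and Xiap (vertical axes from 0) against the fibroblast score, the mean log2 CPM of 14 fibroblast and feeder cell markers, in each library, with the replicate number beside each point. Casp8 is higher and Casp2 lower in the p57 KO libraries of higher score, and Xiap in p57 KO shows no such order.

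**Figure D4:**
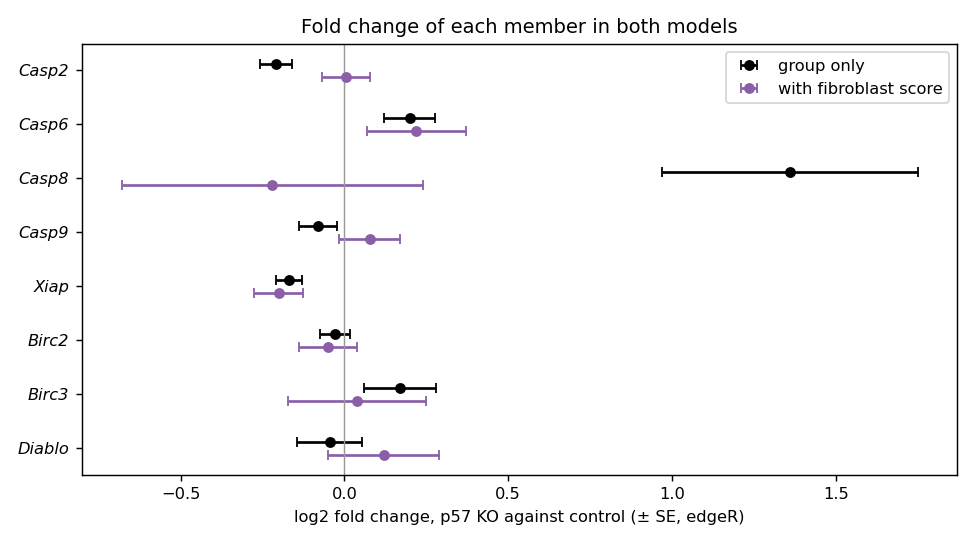
Log2 fold change of p57 KO against control for each member with its SE, in edgeR with the group alone (black) and with that group plus the fibroblast score (purple). The value of Casp8 moves from 1.36 to -0.22 and that of Casp2 from -0.21 to 0.0055, while Xiap has -0.17 and -0.20.

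Among the listed partners of these proteins more genes rose than fell. Of 75 genes in 9 lists of partners, regulators and substrates, 66 were tested, and 20 rose and 1 fell, where 11.6% of all tested genes rose and 11.6% fell. The median over the 66 was 0.13 as log2. The lists were chosen with earlier results of these data known, so these counts only describe them. Of the risers, Casp4, Casp12, Casp14 and Mlkl had enough counts to be tested only because of their p57 KO libraries. In the model with the fibroblast score 4 of these genes passed: Apaf1, Tnfaip3, Tnfrsf10b and Sod2, all higher, where 1.71% of all genes were higher and 1.13% lower. All 4 were among the 21.

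Caspase-9 is activated on the apoptosome. Of 8 genes of the apoptosome and of mitochondrial intermembrane proteins 2 rose and 0 fell, where 11.6% of all genes rose and 11.6% fell. So few genes are not read as a result about the list. Apaf1, the scaffold of the apoptosome, had 59.6, 64.4 and 64.7 CPM in control and 85, 80.5 and 79.6 CPM in p57 KO. All p57 KO libraries lay above all control libraries, and the log2 fold change was 0.38 (SE 0.044, with adjusted p = 2.71e-06). The ratio of Apaf1 to Casp9 in RPKM was 0.601 to 0.666 in control and 0.837 to 0.915 in p57 KO. Cycs, the gene of cytochrome c, rose by 0.24 as log2 (adjusted p = 0.00523). Htra2, Endog, Aifm1, Opa1, Parl and Sept4 did not pass.

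Of 12 tested genes of death receptors, ligands and adaptors, which act around caspase-8, 7 rose and 1 fell. Over all tested genes 11.6% rose and 11.6% fell. Fadd, the adaptor that recruits caspase-8, was the only gene of the 66 that fell. It had 8.61, 8.47 and 10.4 CPM in control and 5.43, 5.72 and 5.94 CPM in p57 KO, a log2 fold change of -0.68 (SE 0.13, with adjusted p = 0.00055). Every p57 KO library lay below every control library. It fell in all 6 fits that left out 1 library, and in the model with the fibroblast score it had -0.67 (adjusted p = 0.129). Among the risers, the death receptor gene Tnfrsf10b went from 92.2 ± 2.33 to 111 ± 2.82 CPM (SD, n = 3; log2 fold change 0.27, with adjusted p = 1.57e-05). Fas, another death receptor, had 0.91, 1.29 and 1.21 CPM in control and 1.64, 4.2 and 4.48 CPM in p57 KO (log2 fold change 1.60, with adjusted p = 0.00873). It did not pass without control replicate 1 or 3, at about the same log2 fold change (1.46 and 1.64, adjusted p = 0.0601 and 0.0609), and the log2 fold change was 0.27 (adjusted p = 0.857) with the fibroblast score. Tnfrsf21 rose by 0.89 as log2, and Tnfrsf1a, Mlkl, Cflar and Ripk3 also rose, though the groups overlapped for Cflar. Mlkl, with 7 to 12 counts in control and 13 to 30 in p57 KO, was tested only because of its p57 KO libraries. Of the 7 risers only Tnfrsf10b passed with the fibroblast score, where Tnfrsf21 had 0.23 (adjusted p = 0.832). The ligand genes Tnf, Fasl and Tnfsf10 were under 1 CPM and were not tested.

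The PIDDosome genes Pidd1 and Cradd, which activate caspase-2, did not pass, with log2 fold changes of 0.11 and 0.24 (adjusted p = 0.161 and 0.511). Of 3 tested XIAP partners 1 rose and 0 fell, beside 11.6% of all genes in each direction. The riser was Xaf1, an interferon-inducible XIAP antagonist. It had 1.03, 1.47 and 1.53 CPM in control and 1.89, 3.84 and 4.87 CPM in p57 KO, a log2 fold change of 1.40 (SE 0.32, with adjusted p = 0.00715). Its p57 KO libraries stood in the order of the fibroblast score, and in the covariate model it had 0.11 (adjusted p = 0.95).

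Among 8 tested cIAP binding proteins and substrates 2 rose and 0 fell, where 11.6% of all genes rose and 11.6% fell. Again so few genes are not read as a result about the list. Tnfaip3, which encodes the NF-kB inhibitor A20, had 2.55, 2.3 and 2.36 CPM in control and 5.93, 5.42 and 6.33 CPM in p57 KO. The p57 KO levels lay close together and well above control, and the log2 fold change was 1.29 (SE 0.17, with adjusted p = 7.9e-06). It passed in all 14 alternatives, with 1.23 to 1.35. Traf3, an adaptor that works with the cIAPs, rose by 0.25 as log2 (adjusted p = 0.00211). Of 12 NF-kB subunits, inhibitors and targets 4 rose and 0 fell, beside the same 11.6% of all genes in each direction. Nfkbia rose by 0.43, Icam1 by 0.26, Sod2 by 0.15 and Nfkb1 by 0.35 as log2, with adjusted p from 5.81e-05 (Nfkbia) to 0.0293 (Nfkb1). Nfkb1 did not pass without control replicate 1 or 3 or p57 KO replicate 2 or 3 (0.26, 0.38, 0.37 and 0.26 as log2, with adjusted p = 0.159, 0.0626, 0.0604 and 0.153). Sod2 did not pass without control replicate 2 or p57 KO replicate 1 (0.13 and 0.10, with adjusted p = 0.0685 and 0.0774). In DESeq2 with all libraries neither passed (Nfkb1 0.35, adjusted p = 0.118, and Sod2 0.15, adjusted p = 0.0538). The NF-kB target genes Cxcl1 and Ccl2, with log2 fold changes of 1.85 and 2.17, varied more between p57 KO libraries and did not pass (adjusted p = 0.113 and 0.128).

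Of 5 other caspase genes tested 3 rose and 0 fell, where 11.6% of all tested genes rose and 11.6% fell. Casp4 and Casp12, grouped with the inflammatory caspases, and Casp14, known from the epidermis, had log2 fold changes of 1.68, 2.42 and 1.43 (adjusted p = 0.0023, 0.00146 and 0.0122). All 3 were under 0.5 CPM in every control library, with 1 to 8 counts each, and at 13 to 34 counts in p57 KO. They had enough counts to be tested only because of their p57 KO libraries, so a rise was favoured in advance. The 3 of 5 is therefore not read as a result about this list. None of them passed in the covariate model (log2 fold changes of 1.24, 1.08 and 1.14, with adjusted p of 0.387, 0.586 and 0.491). Casp14 also did not pass without control replicate 3 (1.24, adjusted p = 0.0667), in DESeq2 (1.45, adjusted p = 0.0898) or against a fold of 1.2 (adjusted p = 0.071). BIR domains are the fold that defines the IAPs. Of 4 other tested genes with BIR domains 1 rose and 0 fell, beside 11.6% of all genes in each direction. Birc6 was the riser, from 348 ± 17 to 393 ± 10.7 CPM (SD, n = 3). Its log2 fold change was 0.17 (SE 0.033, with adjusted p = 0.000834). Per length Birc6 had 13.5 ± 0.661 RPKM in control, above each of Xiap, Birc2 and Birc3. Of 12 genes of proteins that caspases cleave, 0 passed, where 23.3% of all tested genes passed. With 12 genes this is not read as a result about the list. The most abundant, Sptan1 and Parp1, had log2 fold changes of 0.021 and -0.0076 (adjusted p = 0.603 and 0.87). Lmna, which encodes lamins A and C of the nuclear envelope, had 21.7, 27.4 and 20.8 CPM in control and 36.1, 51.2 and 61.1 CPM in p57 KO. Its groups did not overlap, its p57 KO libraries stood in the order of the fibroblast score, and its log2 fold change of 1.09 (SE 0.26) had an adjusted p of 0.0506.

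**Figure D5:**
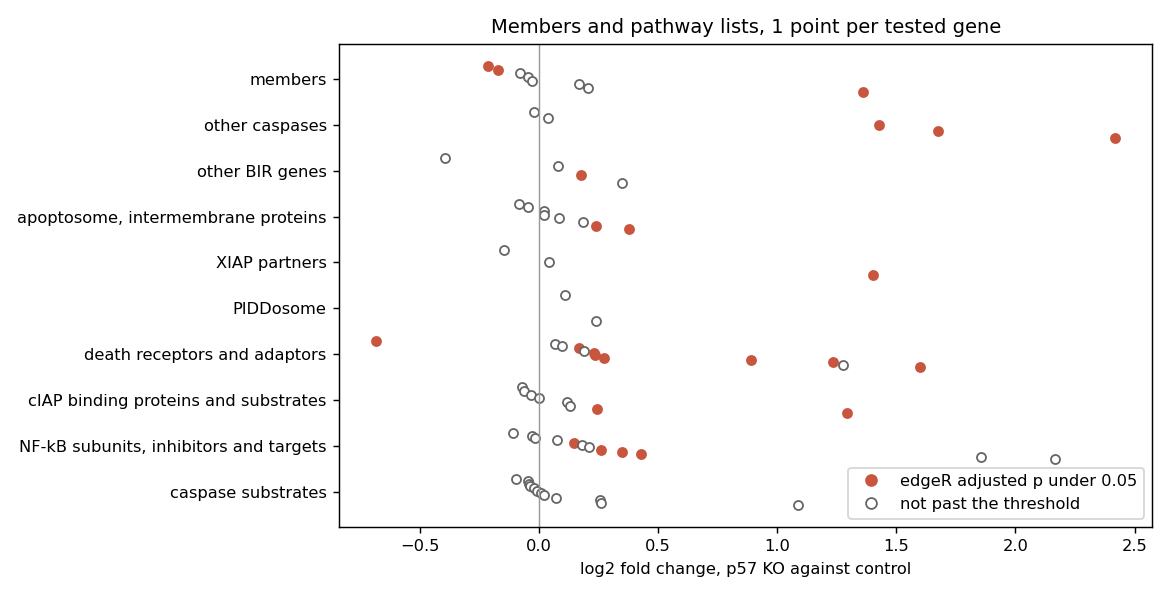
Log2 fold change of p57 KO against control for the 8 members and each tested gene of the 9 pathway lists, 1 point per gene, filled where the edgeR adjusted p is under 0.05. Most members lie near 0, no caspase substrate is filled, Fadd is the only filled point among the lists on the left, at -0.68, and Casp12 lies furthest right at 2.42.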

How the data were processed

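RNA was measured in 3 control and 3 p57 KO libraries. Per the labels, these were stranded mRNA libraries, read as single reads of 76 bp. The authors deposited 1 table of unnormalized read counts for each gene. HISAT2 2.2.1, HTSeq 2.0.2, bcl2fastq 2.20, cutadapt 3.4 and the build mm10 are named in the submitters' processing notes. The sources do not give the annotation, the strand setting or the treatment of multiply matching reads, so counts of overlapping genes are uncertain. Positions and exon lengths came from GENCODE M21 (mm10).

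Counts were filtered with filterByExpr (defaults), scaled by TMM and tested with edgeR 4.0.16 (quasi-likelihood F-test, robust, group only, R 4.3.3), with Benjamini-Hochberg adjustment over 14814 genes and a threshold of 0.05. "Rose" and "fell" mean past it. CPM are TMM-scaled. The test was checked on simulated counts. It recovered 49.3% of 1.2-fold, 68.7% of 1.5-fold and 90.9% of 2-fold changes there, so small changes are often missed. Alternatives were RLE, DESeq2 1.42.0, limma-voom (limma 3.58.1), no filter, at least 1 CPM in 3 libraries, a replicate block, each library left out, a test against a fold of 1.2, and the fibroblast score as a covariate. Members, lists, markers and the rule for named genes (all members, and in each list up to 4 called genes of smallest p, or the most abundant where none was called) were chosen with earlier results of these data known. Other genes were named after their values were seen, and some genes of the lists are not reported here. Replicates of a group differed by more than sampling noise (chi-square per degree of freedom 1.69 to 5.97), so none was counted as a duplicate.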

Additional observations from a re-analysis of the deposited data

How the results depend on the processing

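The numbers of genes that rose and fell, 1725 each, were 414 and 55 against a fold of 1.2 and 254 and 167 with the fibroblast score, and 1044 fell in DESeq2. Among the members, 0 rose and 0 fell in both of those models. The number of members that rose was 0 to 1 over the fits that left out 1 library, and the number that fell was 2 in each. Of the pathway genes, 6 rose against a fold of 1.2, 4 rose and 0 fell with the fibroblast score, and 2 fell with no filter and with the replicate block. Leaving out 1 library, 1 to 5 pathway genes fell (5 without p57 KO replicate 1) and 14 to 24 rose. Over the same fits Diablo had -0.12 to 0.031 and Parp1 -0.031 to 0.0034. With the fibroblast score the fold changes of Casp2 (0.0055), Casp8 (-0.22), Casp9 (0.077), Diablo (0.12) and Parp1 (0.049) changed sign. So did those of Diablo without control replicate 2 (0.0075) and of Diablo (0.031) and Parp1 (0.0034) without p57 KO replicate 3. The cause of these changes was not tested. The sources do not say whether the replicate numbers pair the samples. Deviations of same-numbered libraries from their group means correlated at 0.191, 0.025 and -0.102 over genes. Not every library correlated best with its own number, but so few libraries cannot decide the question. With the replicate block 1934 genes rose and 1772 fell, and the calls of the 8 members did not change. Casp8 had a log2 fold change of 1.30 there, with a smaller adjusted p (0.000405) than with the group alone. Members other than Casp8 had over 100 counts in every library, so depth limits Casp8 most. The stricter filter left out Casp12 and Casp14, which have no value there.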

Other observations

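The genes around the members were read against the 23.3% of all tested genes that passed. Within 100 kb, Casp8 had 2 tested neighbours and both rose. Cflar, which encodes the caspase-8 regulator FLIP and lies 36490 bases from Casp8 on the same strand, changed by 0.23 as log2 (adjusted p = 0.0297). Its groups overlapped, with 32 CPM in p57 KO replicate 1 and 33 CPM in control replicate 2. Trak2, a gene of mitochondrial transport, had 0.23 (adjusted p = 0.00208). Around Birc2 and Birc3, Tmem123 fell (-0.28) and Yap1, the gene of a Hippo pathway coactivator, had -0.046 (adjusted p = 0.406). Of 6 tested neighbours of Casp2, 1 fell (Epha1, -0.22), of 5 of Casp9, 1 fell (Dnajc16, -0.12), of 6 of Diablo, 1 rose (Clip1, 0.25) and 1 fell (Mlxip, -0.12), and of 3 of Casp6 and 1 of Xiap, 0 passed. These neighbours were looked at after the values were seen.

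The genes whose log2 CPM followed a called member most closely over the 6 libraries, among 9559 genes of at least 10 CPM, were Tmem147 and Tcf3 for Casp2 (Pearson r of 0.997 and 0.994), Wwtr1 and Colec12 for Casp8 (0.998 and 0.997), and Mtg1 and Cdc73 for Xiap (0.998 and 0.992). With 6 libraries in 2 groups such values are a description of these libraries. Wwtr1 encodes the Hippo pathway coactivator TAZ and Colec12 a scavenger receptor. They had 30.3 to 34.6 and 47.7 to 56.7 CPM in control and were highest in p57 KO replicate 3, at 55 and 94.4 CPM, and neither passed the test (adjusted p = 0.149 and 0.153).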
